A study of Solanum chacoense with 24 samples.

Results

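Solanum chacoense is a wild potato species. The gene models of its chromosome 8 were followed in leaf RNA of 2 parents and 6 F2 lines. A model was a member when the deposited count table placed its first exon on chromosome 8, a rule that uses no measured value. This gave 1635 members among 37740 models in the table, the fewest of the 12 chromosomes. The table pairs its identifiers with no gene names, so members are described by identifier, position and level, and the leaf origin of the RNA could not be checked against marker genes.

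An F2 plant carries chromosomes that are mosaics of segments from both parents, because pairs of homologous chromosomes exchange segments when the F1 forms gametes. At a given place an F2 plant can carry 2 copies from one parent, 2 copies from the other, or 1 of each. Where the parents differ in the level of a transcript through sequence close to the gene, the level in the F2 tends to follow the local segment. Levels also respond to genes elsewhere in the genome and to the state of the leaf, so a run of neighbouring models at the level of one parent is a description of RNA and not a genotype.

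Parent 80-1 (USDA8380-1) is labelled resistant to the Colorado potato beetle, a leaf-feeding insect, and parent M6, an inbred line by its label, susceptible. The F2 lines EE501F2_089, EE501F2_516 and EE501F2_641 are labelled resistant and EE501F2_093, EE501F2_099 and EE501F2_500 susceptible. Each line is 1 individual kept in vitro, from which 3 plants were raised at 20 °C under 16 h of light and 70% humidity, and leaflets of the fourth expanded leaf were sampled 16 weeks after transplanting. A class of F2 lines therefore rests on 3 individuals, and the spread between plants of a line does not include differences between individuals. In leaf RNA, fewer cells of a type and less RNA per cell cannot be told apart.

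The 24 libraries held 23610756 to 77078776 counts. EE501F2_093 was deepest, with at least 60713423 counts per library. Chromosome 8 took 4.47% to 5.75% of the counts of a library. Its share was 5.73% ± 0.0169 in M6 and 5.22% ± 0.0813 in 80-1 (SD, n = 3), and the lowest share of an F2 line was 4.79% ± 0.338 in EE501F2_641. In 2 windows of the chromosome the 3 plants of EE501F2_641 lay further apart than those of any other line, as described below, and the class comparisons are given with and without this line.

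The members ran from position 191027 to 31624676 in the coordinates of the deposited table, with a median transcript length of 1279 bases. Of the 1635 models, 162 had 0 counts in every library and 297 had counts but were too low to test, which left 1176 tested models (71.9%, against 70.6% over the 12 chromosomes). The members crowded towards both ends. In 5 Mb windows along the chromosome there were 399, 96, 64, 94, 315, 478 and 189 models, and the tested share was lowest in the window from 10 to 15 Mb (32 of 64) and highest in the last window (160 of 189). A mean of at least 100 CPM (counts scaled to library size, per 1000000) in some line was reached by 151 models.

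The models with the most counts, picked after their levels were seen, were g30720 (19570403 to 19577594) and g30437 (24441067 to 24446103). Plants of 80-1 held 5938, 5528 and 5519 CPM of g30720 and plants of M6 3542, 4666 and 4014 CPM. Line means of g30720 in the F2 ran from 1206 CPM in EE501F2_516 to 3620 CPM in EE501F2_093, so each F2 line mean lay under both parental means. Line means of g30437 ran from 1308 CPM in EE501F2_516 to 3577 CPM in 80-1. Per kilobase of transcript, g30437 stood above g30720 in 80-1, at 1970 against 1560 CPM per kb.

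The comparison of 80-1 with M6 asks how far the parents differ along the chromosome. Of 1176 tested models, 445 differed (37.8%, against 37.3% of all tested models of the genome; edgeR quasi-likelihood test, Benjamini-Hochberg adjusted p under 0.05). Of these, 237 were higher in 80-1 (genome 18.6% of tested models) and 208 higher in M6 (genome 18.7%). The share that differed was therefore close to that of the genome. It ran from 33.1% in the window from 30 to 35 Mb to 45% in the window from 5 to 10 Mb. That window held 20 models higher in 80-1 and 7 higher in M6, while in the window from 30 to 35 Mb 21 were higher in 80-1 and 32 in M6. Of the 20 models higher in 80-1 in the former window, 12 lay within 381 kb, in a stretch of neighbours described below.

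**Figure D1:**
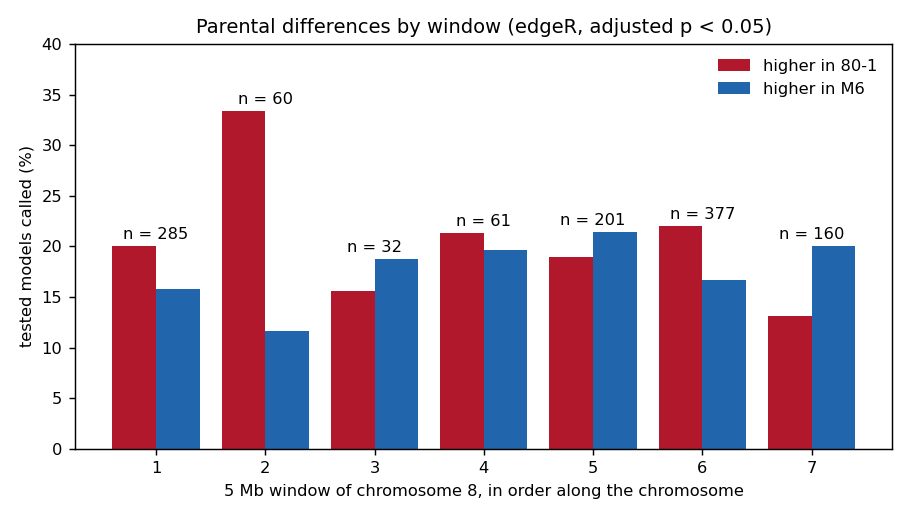
Share of tested chromosome 8 models called between the parents (percent, bars from 0), by 5 Mb window in order along the chromosome, in red for higher in 80-1 and in blue for higher in M6; n is the number of tested models. The second window stands out, with 20 of 60 models higher in 80-1, 12 of them within 381 kb, and 7 higher in M6.

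The smallest p among models higher in 80-1 belonged to g31631 (6179045 to 6184097, minus strand). Its level was 11.6, 8.62 and 8.5 CPM in the 3 plants of 80-1 and 0 in the 3 plants of M6, so the parents did not overlap (adjusted p = 1.05e-11, edgeR). All 6 F2 lines read it, from 3 ± 0.0591 CPM in EE501F2_516 to 8.52 ± 0.69 CPM in EE501F2_500 (SD, n = 3). Its neighbour g31629 (6032098 to 6033760, minus strand) had 6.73, 5.24 and 6.49 CPM in 80-1 and 0 in M6 (adjusted p = 1.3e-10). In the F2 lines g31629 lay between 1.2 CPM in EE501F2_516 and 2.81 CPM in EE501F2_089, under all plants of 80-1 and over all plants of M6.

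Among models higher in M6, g37729 (19050313 to 19052456, plus strand) had 4.11, 6.08 and 5.91 CPM in M6 and 0.0773, 0.127 and 0 CPM in 80-1. The log2 fold change of 80-1 over M6 was -6.23 ± 0.44 (SE, adjusted p = 1.96e-09, edgeR). Of the F2 lines, 5 lay near M6, with means from 3.47 CPM in EE501F2_641 to 7.4 CPM in EE501F2_089. EE501F2_500 stood apart with 0.0358, 0.0371 and 0.0621 CPM, within the range of 80-1.

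The model g31949 (5827890 to 5829968, plus strand) showed the same order. It had 10.4, 7.62 and 11.8 CPM in M6 and 0.773, 0.634 and 0.796 CPM in 80-1, a log2 fold change of -3.75 ± 0.28 (SE, adjusted p = 3.7e-09, edgeR). EE501F2_500 held 2.18, 1.63 and 1.68 CPM, below every plant of M6 and above every plant of 80-1. The means of the other 5 F2 lines ran from 7.62 to 14.5 CPM, the highest in EE501F2_641, whose plants had 8.09, 19.4 and 16 CPM.

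Some models were read in 1 parent alone, that is with a mean of at least 1 CPM in one parent and 0 counts in all 3 plants of the other. There were 14 such models for 80-1, or 1.37% of the 1022 chromosome 8 models at 1 CPM or more in a parent, and 8 for M6, or 0.783%. On all other chromosomes together the shares were 0.478% and 0.303%. The share was thus higher on chromosome 8 in both directions, and the difference from the other chromosomes was not tested. A count of 0 over 3 plants allows up to 3 counts, or 0.0284 CPM in M6 and 0.0409 CPM in 80-1, which covers counting error only.

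The model g26016 (23398544 to 23400347, minus strand) had the highest level among those read in 80-1 alone, with 13.8, 19.5 and 31.3 CPM, at least 759-fold higher than the 3-count limit over the plants of M6. Its level in the F2 ran from 0.0342 CPM in EE501F2_500 to 16.3 CPM in EE501F2_641. Within that line the plants held 6.79, 41.7 and 0.503 CPM, so plants of 1 line covered the range between the parents. The model g7648 (1645353 to 1645886, minus strand) had 31.9, 14.8 and 13.4 CPM in 80-1 and was all but missing from the F2: 5 lines had 0 counts in every plant and EE501F2_093 had 0.0424, 0 and 0 CPM.

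Of those read in M6 alone, g7374 (25725598 to 25726461, plus strand) had 2.01, 3.26 and 2.83 CPM in M6, at least 66-fold higher than the limit over the plants of 80-1. The F2 lines had at most 2.7% of the M6 level, the highest in EE501F2_641. The model g21189 (4060524 to 4068785, plus strand) had 2.52, 1.54 and 1.92 CPM in M6. The F2 lines spread over a wide range, from 58.4% of the M6 level in EE501F2_089 through 11.6% in EE501F2_093 to 0.519% in EE501F2_500.

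Counted as read at 10% of the parental mean or more, 9 of the 14 models of 80-1 were read in all 6 F2 lines and 2 in no F2 line. For M6, 1 of 8 models was read in all 6 lines and 3 in none. Single lines read 10 or 11 of the 14 models of 80-1, and 4 or 5 of the 8 models of M6, except that EE501F2_500 read 2 of the 8. One model of M6, at 6928635 to 6929684, was read in 5 F2 lines at 175% to 191% of the M6 level and in EE501F2_500 at 1.05%. Another, at 28175897 to 28176645 and read in 80-1 alone, divided the lines across the classes: EE501F2_516, EE501F2_093 and EE501F2_500 had 51.9% to 113% of the 80-1 level, and EE501F2_089, EE501F2_641 and EE501F2_099 had 5.2% to 8.29%.

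The models read in 80-1 alone included 5 that lay within 381 kb, from 6032098 to 6413435, among them g31631 and g31629. All 5 were read in every F2 line, at 19.5% to 100% of the 80-1 level. The median over these 5 models was highest in EE501F2_500 (83.8% of 80-1) and lowest in EE501F2_516 (35.7%). The stretch held 14 models in all, and each of its 12 tested models was higher in 80-1 than in M6. Over the genome, 18.6% of tested models were higher in 80-1. The stretch was picked for its 5 models read in 80-1 alone, so the direction of those 5 was fixed by the choice. Without gene names it cannot be said whether these neighbours are copies of each other, and reads of near-identical copies could be shared among them.

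**Figure D2:**
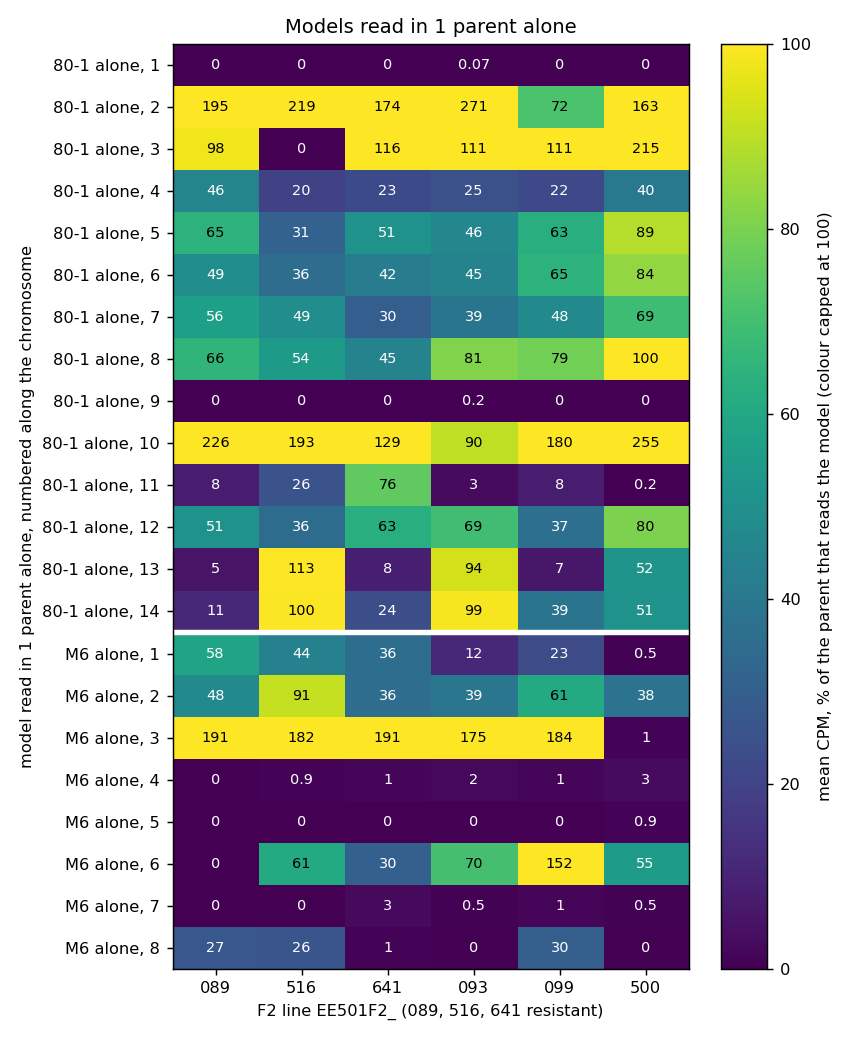
Mean CPM in each F2 line as a percentage of the parent, for the 14 models read in 80-1 alone (top) and the 8 read in M6 alone (bottom), in order along the chromosome; the colour is capped at 100. Models 4 to 8 of 80-1 are the 5 neighbours within 381 kb, read in all 6 lines, and EE501F2_500 reads 2 of the 8 models of M6.

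To place the F2 lines between the parents, a parental state was computed for informative models. These were called between the parents and differed by 2 or more on the log2 scale, in either direction. A state of 0 is the mean log2 CPM of M6 and 1 that of 80-1. The rule kept 139 informative models (11.8% of those tested, against 11.6% in the genome), 82 higher in 80-1 and 57 higher in M6. Just inside and just outside the fold limit the absolute log2 fold changes were 2.04 and 2.00. The median level in the higher parent was 2.49 CPM, and 30 models were under 1 CPM there. On this log scale the mean of both parents does not sit at 0.5: it reads 0.789 at the median 80-1-higher model and 0.228 at the median M6-higher model. Medians are therefore also given by direction.

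Over the 82 models higher in 80-1, the median state was 0.721 in EE501F2_089, 0.639 in EE501F2_516, 0.675 in EE501F2_641, 0.771 in EE501F2_093, 0.636 in EE501F2_099 and 0.776 in EE501F2_500. All 6 line medians lay under the mid-parent level. The SD over 3 plants was 0.0288 to 0.0525, and the plants of lines next to each other in order of level overlapped. On linear CPM, where the mid-parent is 0.5, the line medians of these 82 models ran from 0.272 in EE501F2_516 to 0.475 in EE501F2_093.

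Over the 57 models higher in M6, the median was 0.388 in EE501F2_093, 0.394 in EE501F2_516, 0.449 in EE501F2_099, 0.491 in EE501F2_089, 0.524 in EE501F2_641 and 1 in EE501F2_500. All 6 medians lay above the mid-parent level, on the side of the lower level of 80-1. For both directions the same parental libraries chose the models by a large difference and set the mid-parent level. That choice can favour the side of the lower parent, so the place of the F2 medians against the mid-parent is a description. Plants of lines next to each other in this order overlapped as far as EE501F2_089. The plants of EE501F2_641, at 0.507 to 0.761, lay just above those of EE501F2_089, at 0.371 to 0.497. EE501F2_500 stood clear of all: each of its 3 plants had a median of 1, and the highest plant of any other line was at 0.761, in EE501F2_641. A model with 0 counts in 80-1 and in a plant reads exactly 1. All 3 plants of EE501F2_500 had 0 counts at 14 of the 57 models, and those of 80-1 at 15. The equal medians therefore do not measure how close the plants of EE501F2_500 were. On the 11 other chromosomes the medians of EE501F2_500 at M6-higher models ran from 0.268 to 0.574.

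**Figure D3:**
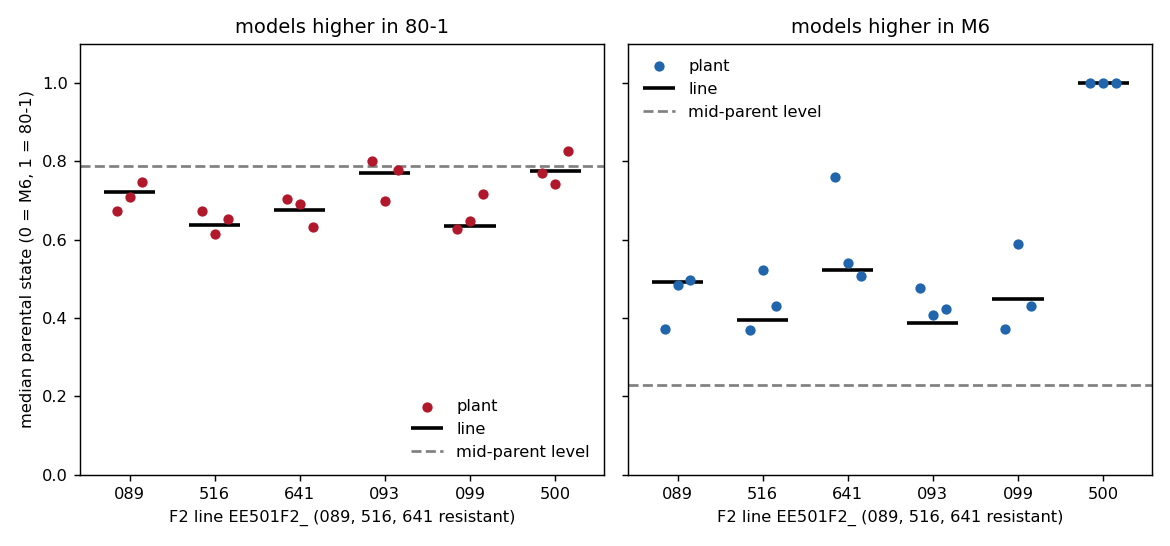
Median parental state over the 82 models higher in 80-1 (left) and the 57 higher in M6 (right) in each F2 line; points are plants, black bars the line, the dashed line the mean of the parents on this scale. At M6-higher models all 3 plants of EE501F2_500 sit at 1, above every plant of the other lines.

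Runs of models were then read along the chromosome with a running median over 11 informative models. A block is a run of at least 10 models with the running median under 0.25 (M6 level), over 0.75 (80-1 level) or between these. The mid-parent readings given above lie outside these limits, over the upper limit at 80-1-higher models and under the lower limit at M6-higher models. Where most models of a run share a direction, a level name therefore does not separate the level of a parent from an equal mix. Runs of the same level were joined across shorter runs of another level, and joined runs of 4 models or more are named below. Block ends are given in Mb by the outermost model and are only as sharp as the spacing of the models, which left 3 informative models between 10 and 15 Mb.

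EE501F2_089 had 4 blocks. It was between the parents from 1.76 to 6.03 Mb (23 models, median 0.718) and at M6 level from 6.93 to 19.4 Mb (12 models, median -0.072). A block at 80-1 level followed from 23.1 to 26.6 Mb, where the 26 models had a median of 0.834 and the plants 0.899, 0.801 and 0.85. The rest, to 31.5 Mb, was between (38 models, median 0.579), with plants at 0.56, 0.522 and 0.612. In these blocks between the parents the models higher in 80-1 had medians of 0.75 and 0.622 and those higher in M6 0.323 and 0.526. In the M6-level block the medians by direction, 80-1 first, were 0 and -0.218, and in the 80-1-level block 0.822 and 0.958. Against 80-1, 505 of 1176 models differed (42.9%; genome 41.1%), and against M6 454 (38.6%; genome 39.7%).

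EE501F2_516 had 5 blocks. Its first stretch, 0.451 to 2.27 Mb, was at M6 level (16 models, median -0.0174, with plants at -0.0447, -0.0123 and -0.0123). The next stretch to 6.41 Mb was between (28 models, median 0.696), and 6.93 to 20.9 Mb was again at M6 level (16 models, median 0). In the latter the 8 models higher in 80-1 had a median of 0.359, over the 0.25 limit, and the 8 higher in M6 -0.263. In the first stretch the medians were -0.0174 over 12 models higher in 80-1 and 0.339 over 4 higher in M6. From 21.1 to 28.3 Mb the line was between the parents over 54 models, with a median of 0.689. Models higher in 80-1 had medians of 0.724 and 0.72 in these blocks between the parents, and models higher in M6 0.3 and 0.681. A short block of 11 models from 28.5 to 28.9 Mb, all higher in 80-1, was at 80-1 level (median 0.928). This line differed most often from both parents, at 674 models against 80-1 (57.3%; genome 54.9%) and 579 against M6 (49.2%; genome 48.7%).

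EE501F2_641 had 3 blocks, 2 of them between the parents: 2.14 to 22.6 Mb (56 models, median 0.584) and 26.8 to 31.5 Mb (36 models, median 0.601). Inside the former lay a run of 7 models from 11.8 to 19.2 Mb with a running median of 0.0108 to 0.116, at M6 level but too short to form a block. In the 2 blocks the models higher in 80-1 had medians of 0.653 and 0.654 and those higher in M6 0.194 and 0.492. The block from 22.8 to 26.8 Mb was at 80-1 level, with 34 models, a median of 0.87 and plants at 0.998, 0.883 and 0.833. Its 15 models higher in 80-1 had a median of 0.883 and its 19 higher in M6 0.823. The plants parted elsewhere. In the window from 30 to 35 Mb their medians over 9 models were 0.842, 0.437 and 0.0814, and from 15 to 20 Mb, over 7 models, 0.761, 0.307 and 0.11. These ranges of 0.76 and 0.651 were the only ones over 0.4 in any line, since the other 5 lines had ranges of at most 0.3 in the 6 windows with at least 5 informative models. A line mean therefore stands for no single plant in those windows. Against 80-1, 413 models differed (35.1%; genome 32.8%), and against M6 506 (43%; genome 40.6%).

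EE501F2_093, the line with the deepest libraries, had 5 blocks. The first, from 0.451 to 1.67 Mb, was at M6 level (11 models, median 0; plants 0.0159, -0.0245 and 0.0532), and the second, to 6.16 Mb, was between (24 models, median 0.578). M6 level returned from 6.93 to 20.9 Mb (16 models, median -0.000221). A long block of 63 models from 22.3 to 29.6 Mb was at 80-1 level with a median of 0.913 and plants at 0.918, 0.833 and 0.894. Within it the 35 models higher in 80-1 had a median of 0.93 and the 28 higher in M6 a median of 0.663. The last stretch of the chromosome was between (11 models, median 0.733). In the blocks between the parents, models higher in 80-1 had medians of 0.732 and 0.459 and models higher in M6 0.426 and 0.733. Against 80-1, 269 models differed (22.9%; genome 21.7%), and against M6 299 (25.4%; genome 21.3%).

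EE501F2_099 also had 5 blocks. The first 34 models, from 0.451 to 6.03 Mb, were between the parents (median 0.454), and 11 models from 6.93 to 19.3 Mb were at M6 level (median -0.146). The stretch from 19.4 to 24.9 Mb was between (31 models, median 0.498) and included a run of 4 models from 22.8 to 22.9 Mb just over the 80-1 limit. A block at 80-1 level covered 24.9 to 26.6 Mb, with 16 models, a median of 0.906 and plants at 0.881, 0.796 and 0.848. From 26.8 to 28.9 Mb the line was between (21 models), with plants at 0.495, 0.651 and 0.633. Over these 3 blocks between the parents, models higher in 80-1 had medians of 0.646, 0.503 and 0.642, and models higher in M6 0.258, 0.362 and 0.356. The M6-level block had medians by direction, 80-1 first, of 0 and -0.209, and the 80-1-level block 0.828 and 0.909. Against 80-1, 408 models differed (34.7%; genome 37.1%), and against M6 298 (25.3%; genome 20.9%).

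EE501F2_500 had 2 blocks. The first stretch from 0.451 to 1.67 Mb was at M6 level (11 models, median -0.0227), with plants at -0.0245, -0.0245 and 0. Its 9 models higher in 80-1 had a median of -0.0227 and its 2 higher in M6 -0.497. From 3.06 Mb to the last informative models at 31.5 Mb the line was at 80-1 level over 118 models, with a median of 0.945 and plants at 0.941, 0.907 and 0.943. This block is joined across a run of 9 models from 23.4 to 25.1 Mb where the running median was 0.61 to 0.702, between the parents. In that block the 52 models higher in M6 had a median of 1, and the 66 higher in 80-1 a median of 0.822, close to the mid-parent reading of 0.789. Against 80-1, 447 models differed (38%; genome 38.7%), and against M6 507 (43.1%; genome 33.3%).

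**Figure D4:**
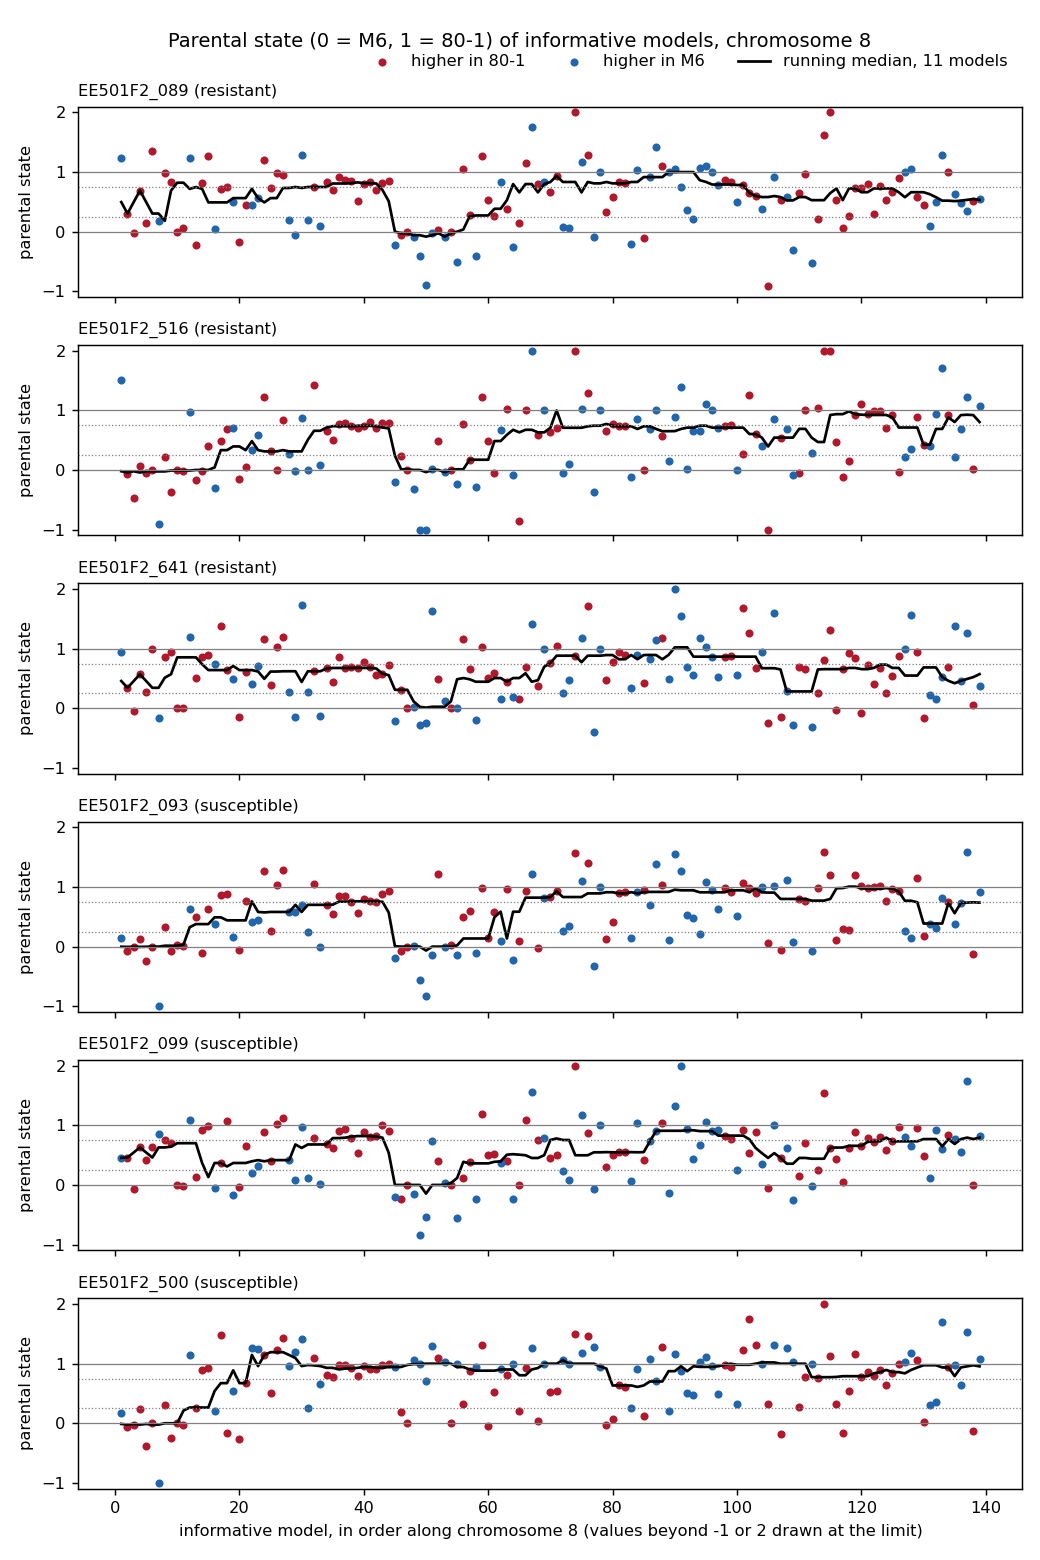
Parental state (0 is the mean of M6, 1 that of 80-1) of the 139 informative models in order along chromosome 8, in 1 panel per F2 line; red points are models higher in 80-1, blue points models higher in M6, and the black line the running median over 11 models. In 5 lines the median drops to the M6 level near models 45 to 55, and in EE501F2_500 it stays near 1 there.

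The number and ends of blocks depended on the scale. On linear CPM, where the mid-parent is 0.5, EE501F2_500 had 6 blocks instead of 2: the long stretch at 80-1 level was interrupted by runs between the parents at 20.1 to 22.4 Mb (median 0.743) and 28 to 29.6 Mb (median 0.6). In the linear block at 80-1 level from 22.6 to 27.6 Mb the 24 models higher in M6 had a median of 0.998 and the 19 higher in 80-1 a median of 0.216, so the level of that block came from the M6-higher models. That block was joined across 6 models from 23.4 to 24.7 Mb that were between the parents (running median 0.447 to 0.531). EE501F2_099 was at M6 level from 6.93 to 24.7 Mb on that scale, joined across 2 runs between the parents. These were 5 models from 21.2 to 22.3 Mb (running median 0.288 to 0.449) and 6 models from 22.6 to 23 Mb (0.449 to 0.748). EE501F2_516 was at 80-1 level from 25.1 to 28.9 Mb, joined across a run of 5 models between the parents from 26.2 to 26.8 Mb. Shorter runs were joined there too, among them 3 models at M6 level from 26.8 to 27.1 Mb (running median 0.211 to 0.243). EE501F2_093 gained a run at 80-1 level from 2.95 to 4.49 Mb. The M6-level block that began at 6.93 Mb was present on both scales in EE501F2_089, EE501F2_516, EE501F2_093 and EE501F2_099.

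At the start of the chromosome the lines parted without regard to class. Over the 11 informative models from 450663 to 1674638, of which 9 were higher in 80-1, the median state was -0.0245 in EE501F2_516, 0 in EE501F2_093 and -0.0227 in EE501F2_500. All 3 lines had 10 of 11 models under 0.25. The median was 0.304 in EE501F2_089, 0.344 in EE501F2_641 and 0.46 in EE501F2_099, with 3 to 5 models under 0.25. The 9 models higher in 80-1 gave the same median as all 11 in each line. No plant of EE501F2_516, EE501F2_093 or EE501F2_500 was above 0.0532, and no plant of the other 3 lines was below 0.281. The end of the stretch was set as the nearest end of the first M6-level blocks of EE501F2_516, EE501F2_093 and EE501F2_500. The low states of these 3 lines and their distance from the others therefore follow in part from that choice, and are a description. The mean of the parents reads 0.758 over the 11 models, above all 6 lines.

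In the middle of the chromosome EE501F2_500 differed from the other lines in level. Between 6.9 and 20.5 Mb there were 15 informative models, 8 of them higher in M6. In the other 5 lines 6 or 7 of these 8 models were above the M6 mean, whereas in EE501F2_500 none was, and 7 were under 10% of it. At the 7 models higher in 80-1 this line did not stand apart, with a median state of 0.321 against 0.0353 to 0.493 in the other lines. The limits of this stretch lie close to the ends of the M6-level blocks of other lines. They were set with earlier results known, so the contrast follows in part from that choice and is a description.

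Over the whole chromosome EE501F2_500 had 32 of the 57 M6-higher models under 10% of the M6 mean, against 9 to 17 in the other lines. It had 1 above the M6 mean, against 11 to 17. All 3 plants had 0 counts at 14 of the 57 models, against 2 to 5 models in the other F2 lines and 15 in 80-1. In tests, EE501F2_500 differed from 80-1 at 13 of the 57 and from M6 at 48. In the other lines these numbers were 32 to 36 and 29 to 34. Because the parental libraries chose these models, the numbers against the parents are a description.

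Tests between F2 lines compare no parental mean, although the parental libraries chose the 57 models and enter the estimate of the spread. EE501F2_089 differed from EE501F2_500 at 28 of the 57 models (24 higher in EE501F2_089), against 30.4% of all tested chromosome 8 models and 28.9% in the genome. EE501F2_516 differed from it at 32 of 57 (29 higher in EE501F2_516; genome 33.4%). EE501F2_641 differed from it at 23 of 57 (20 higher in EE501F2_641; genome 30.7%). These were 49.1%, 56.1% and 40.4% of the 57 models. At the 82 models higher in 80-1 these 3 lines differed from EE501F2_500 at 27, 33 and 32 (32.9%, 40.2% and 39%). Of those, 14, 10 and 17 were higher in the resistant line. For EE501F2_641 the shares at both sets of models were thus nearly the same. From EE501F2_093 the same lines differed at 18, 16 and 13 of the 57 (genome 35.6%, 49.4% and 21.9%), and from EE501F2_099 at 9, 12 and 17 (genome 21%, 31.3% and 38.9%). Both directions were present in each of these pairs, with 4 to 11 models per direction. The libraries of EE501F2_500 enter all 3 of the former tests, so these are not independent of each other.

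The comparison of the F2 classes asks whether resistant and susceptible lines differ along the chromosome. The median state over the 139 models was 0.651, 0.595 and 0.653 in the resistant lines and 0.634, 0.621 and 0.903 in the susceptible lines. Resistant lines averaged 0.633 ± 0.0328 and susceptible lines 0.719 ± 0.159 (SD, n = 3), a difference of -0.0864 (exact permutation test over lines, two-sided, p = 0.6, where 0.1 is the smallest possible). Without EE501F2_641 the difference was -0.0984 (exact permutation p = 0.6, smallest possible 0.2). At models higher in 80-1 the class difference was -0.0491 (exact p = 0.4) and at models higher in M6 -0.143 (exact p = 0.9). The classes overlapped in all 6 windows, and without EE501F2_641 in 5 of 6, the exception being 15 to 20 Mb with 7 models (0 to 0.0111 in resistant and 0.02 to 1 in susceptible lines). At models of at least 5 CPM in the higher parent (33 higher in 80-1 and 13 in M6) the difference turned to 0.0248.

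With the line as the replicate, edgeR called 0 of 1177 models between the classes (genome 0.0142%; quasi-likelihood test on line sums, Benjamini-Hochberg adjusted). At an unadjusted p under 0.05 there were 83 (7.05%; genome 7.4%). DESeq2 called 23, or 1.96% of those it tested (genome 2.56%). With limma-voom and a random effect of line, 7 were called, or 0.595% (genome 0.873%). Each share was under that of the genome.

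By a criterion that rests on plants, 8 of 1176 models (0.68%; genome 1.26%) differed with the same sign in each of the 9 pairings between classes. Resistant lines were higher at 6 of them and lower at 2. Of the 8, 1 was called between the parents and 7 were not. Over all tested models, 37.8% were called between the parents on chromosome 8 and 37.3% in the genome. Without EE501F2_641, whose plants stood apart, 66 models (5.61%; genome 5.95%) met the criterion in the 6 remaining pairs. Leaving out any other single line gave 11 to 20 models (0.935% to 1.7%; genome 1.49% to 2.33%). Fewer pairs make the criterion easier to meet.

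The model g7589 (960134 to 964166, minus strand) had the clearest separation. Plants held 68.7, 64.2 and 71.9 CPM in EE501F2_089, 68.7, 91.8 and 56 in EE501F2_516 and 27.7, 32.4 and 72.3 in EE501F2_641. The susceptible plants held 8.19, 7.65 and 12 CPM in EE501F2_093, 7.3, 5.72 and 6.08 in EE501F2_099 and 12.8, 10.1 and 17.5 in EE501F2_500. Every resistant plant was above every susceptible plant, and both parental means were under the 3 susceptible means. 80-1 had 4.39 ± 1.91 CPM and M6 had 5.61 ± 0.652 CPM (SD, n = 3). Over lines the log2 difference was 2.67 ± 0.35 (SE), which edgeR did not call (adjusted p = 0.155) and DESeq2 did (adjusted p = 4.18e-09). Without EE501F2_641 it was 2.84 ± 0.34 (adjusted p = 0.0793, edgeR). The parental difference (log2 -0.35, adjusted p = 0.442, edgeR) was smaller than the class difference by 3.05 ± 0.40 on the log2 scale (adjusted p = 8.26e-06, edgeR on plants, which takes plants of 1 individual as replicates; 34.7% of all tested models of the genome were called in that comparison).

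The model g14096 (28602106 to 28606960, minus strand) had line means of 31.7, 33.2 and 32 CPM in the resistant lines and 17.8, 17.6 and 13 CPM in the susceptible lines. The classes overlapped in single plants, since plant 1 of EE501F2_641 had 18.9 CPM, within the susceptible range. Parental means lay between those of the classes: 23.7 ± 1.58 CPM for 80-1 and 23.9 ± 2.82 CPM for M6 (SD, n = 3). Over lines the log2 difference was 1.00 ± 0.19 (SE; adjusted p = 0.271 by edgeR and 0.000695 by DESeq2), and without EE501F2_641 1.01 ± 0.21 (adjusted p = 0.183, edgeR).

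In the opposite direction, g7507 (27166806 to 27169270, plus strand) had line means of 19.9, 12.4 and 41.8 CPM in the resistant lines and 106, 78.1 and 80.6 CPM in the susceptible lines. No resistant plant reached the lowest susceptible plant, at 70.3 CPM. Both parents stood with the susceptible lines or above, at 122, 103 and 112 CPM in 80-1 and 90.6, 112 and 104 CPM in M6. The log2 difference over lines was -1.83 ± 0.44 (SE; adjusted p = 0.348 by edgeR and 0.00866 by DESeq2), and without EE501F2_641 -2.43 ± 0.30 (adjusted p = 0.0824, edgeR).

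**Figure D5:**
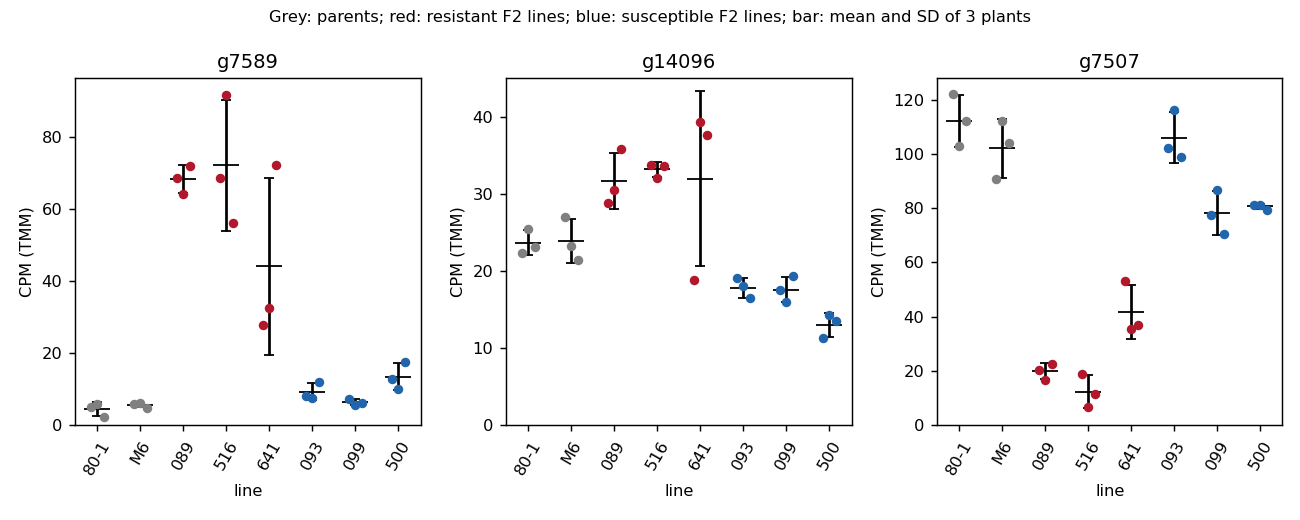
CPM per plant (points), with mean and SD of 3 plants (bars), in the parents (grey), resistant F2 lines (red) and susceptible F2 lines (blue) for g7589, g14096 and g7507. The parents lie together in all 3 panels while the line means of the F2 classes lie apart, with an overlap of single plants for g14096, and plants of EE501F2_641 spread most for g7589 and g14096.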

How the data were processed

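Leaf RNA was sequenced in 24 libraries, 3 plants of each of 8 lines, all with an RNA integrity number of at least 8 per the labels. The authors deposited raw counts per gene model and, in a unit other than counts, each model's length in bases. The submitters' processing notes name featureCounts 1.5.3, DESeq2, STAR 2.6.0, Subread and Trimmomatic 0.35, without their order or roles, and per the file headers the table has the columns of featureCounts. Not given in the sources used here are the genome build, annotation release, strand setting and treatment of multi-mapping reads, so reads of near-identical copies and of antisense neighbours cannot be separated from those of the models named. Coordinates are those of the table.

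From the deposited counts, models were filtered with filterByExpr, scaled by TMM and fitted with edgeR 4.0.16 (R 4.3.3) on the whole table: quasi-likelihood, each line with 1 mean (16 residual degrees of freedom), and another on the sums of each F2 line (4 residual degrees of freedom). Models were called at a Benjamini-Hochberg adjusted p under 0.05. Standard errors were derived from each estimate and its F statistic. DESeq2 1.42.0 and limma 3.58.1 gave alternatives. Parental states use mean log2 CPM with a prior count of 2. The scripts were run on simulated data with known answers. For blocks, a pass limit was set only on the linear scale and only for the 2 parental levels, not for an equal mix. None was set for blocks on the log2 scale. Plants of the same line were kept as separate replicates, since they varied beyond counting error (chi-square per degree of freedom 11.1 to 222 over 24 pairs).

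Members, lists and rules were chosen with earlier results of these data known. At most 2 models per direction were named: for the parents, called models of at least 5 CPM with the smallest p; for models read in 1 parent alone, those with the highest mean; for the classes, models called in all 9 pairs, of at least 5 CPM, with the smallest p in their worst pair. Alternatives were another scaling, no filter, other tools, a replicate block, equal depth, other state settings, and leaving out each library or line.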

Additional observations from a re-analysis of the deposited data

Results flagged for a closer look

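The median parental state of EE501F2_500 over the 139 informative models was 0.903, against 0.595 to 0.653 in the other 5 lines. Its gap to the next line was 0.812 of the whole range, above Dixon's critical value for 6 values, a limit that chance passes in about 1 group of 20 (5%). The 3 plants of the line had 0.872, 0.868 and 0.902. At the 46 informative models of at least 5 CPM in the higher parent the median of EE501F2_500 fell to 0.665, while its median at the 13 M6-higher models among them was 1.02 and that of EE501F2_641 was 0.943.

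At g7589 the difference between the parents (80-1 minus M6) and that between the F2 classes (resistant minus susceptible) differed by -3.05 on the log2 scale (edgeR, adjusted p = 8.26e-06), at g14096 by -1.03 (adjusted p = 0.0011) and at g7507 by 2.13 (adjusted p = 7.13e-06). These tests take the plants of an individual as replicates; with the line as the replicate edgeR called none of the class differences (adjusted p = 0.155, 0.271 and 0.348). All 3 were chosen for their class difference, so the size of these values is a description.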

How the results depend on the processing

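Parental calls on chromosome 8 stayed within 1.5 times the reported count under each alternative (371 to 480 without single libraries), as did calls against the parents, except where 6 libraries were compared alone: 436 for EE501F2_093 against 80-1, and 166 and 233 for EE501F2_641 against 80-1 and M6. A fit with the replicate number as a block called 433 models between the parents, of which 427 were among the 445 reported, and 7 models instead of 8 in all 9 pairs; no count moved by more than 1.5 times. The numbers did not pair the plants (17 of 84 same-number correlations over 0.1), so the block is only an alternative.

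Median states moved with the scale, by construction: on linear CPM they were 0.491 in EE501F2_089, 0.355 in EE501F2_516, 0.449 in EE501F2_641, 0.58 in EE501F2_093, 0.397 in EE501F2_099 and 0.825 in EE501F2_500. At models called between the parents with a log2 difference of 1 or more they were, in that order, 0.563, 0.469, 0.588, 0.568, 0.534 and 0.747. At 5 CPM or more in the higher parent EE501F2_500 had 0.665, and the class difference turned from -0.0864 to 0.0248. Without single libraries the medians ran from 0.574 to 0.675, 0.514 to 0.632, 0.622 to 0.671, 0.571 to 0.686, 0.590 to 0.624 and 0.867 to 0.907 in the same order, and the class difference from -0.120 to -0.0539.

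Block counts moved too. At 5 CPM or more there was 1 block in EE501F2_089, EE501F2_516, EE501F2_641 and EE501F2_099, and 2 in EE501F2_093, where only 46 models were left. EE501F2_516 had 6 blocks at a log2 difference of 1 and 4 with running medians over 7 or 21 models or levels at 1/3 and 2/3, and EE501F2_099 had 7 at those levels. EE501F2_641 had 5 on linear CPM or with a prior count of 0.5, and EE501F2_500 had 6 on linear CPM or at a log2 difference of 1. Without single libraries the counts were 4 to 6 in EE501F2_089 and EE501F2_093, 5 to 7 in EE501F2_516, 3 to 5 in EE501F2_641, 3 to 6 in EE501F2_099 and 2 to 4 in EE501F2_500. The cause of these changes, the smaller number of models included, was not tested.

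Between the classes over lines, DESeq2 called 23 models and limma-voom 7 where edgeR called 0, with 0 also without any single line. The models called in all pairs numbered 6 to 66 when a library or line was left out, with 66 without EE501F2_641. With up to 3 counts allowed in the other parent, 13 models instead of 8 were read in M6 alone. Without single parental libraries, 13 to 17 were read in 80-1 alone and 6 to 12 in M6 alone. The named models kept their direction and their call between the parents or in the line pairs under each alternative run for them, but over lines DESeq2 called g7589, g14096 and g7507 and edgeR did not. A few informative models per window, and a median level of 2.49 CPM, limit how finely blocks can be placed.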
